A study of Mus musculus with 48 samples.

Results

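The genes described here belong to the FGF-ERK signalling pathway and its negative feedback: Fgf4, Fgfr1, Fgfr2, Spry2, Spry4, Spred1, Dusp4, Dusp6, Etv4 and Etv5. They were chosen by gene symbol as a named pathway group, with earlier results of these data known, and all 10 were found among the 20171 genes of the count table. All 10 passed the low-count filter in every comparison. The study immunoprecipitated an epitope-tagged Tnrc6a protein with HA magnetic beads from mouse embryonic stem cells and sequenced the RNA of the lysate (input) and of the beads (IP). Tnrc6a is a GW182 family protein, which binds Argonaute proteins and recruits the deadenylases that silence microRNA targets. Ago2 is an Argonaute protein and Upf1 is the helicase of nonsense-mediated decay.

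Every group was of 129S6/SvEvTac embryonic stem cells that carried the GFP_5xT71BS reporter and a stably transfected FLAG-Cas9::T2A::Blasticidin construct, grown on gelatin in serum and LIF. The 4 genotypes were untagged cells, cells with the HA-AVI-Tnrc6a allele (called HA-Tnrc6a), HA-AVI-Tnrc6a Ago2-/- cells and HA-AVI-Tnrc6a Upf1-/- cells. Each was processed in 2 experiments, numbered 3 and 4, with 3 inputs and 3 IPs per genotype and experiment, which gave 48 libraries in 16 groups. Cells were grown in triplicate, and the labels do not say how many clones stand behind a genotype, so p-values measure the spread between these cultures.

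Library totals ran from 11471544 to 19595405 counts in experiment 3 and from 25724085 to 73845953 in experiment 4. That highest total was of 1 library, Ago2-/- IP 6, and the next highest was 37179105. Tnrc6a RNA itself was recovered far above untagged cells (log2 difference 7.77 ± 0.18 SE in HA-Tnrc6a). In the inputs, Ago2 RNA was lower in the Ago2-/- cells than in HA-Tnrc6a cells (log2 -1.21 ± 0.03). Upf1 RNA was higher, not lower, in the cells labelled Upf1-/- (log2 0.58 ± 0.03), and a count over the whole gene does not test the loss of the protein. The summed level of 10 embryonic stem cell markers was 6605 to 8148 CPM (counts scaled to a common library size) in every input. The summed level of 8 primitive endoderm markers was 39.6 to 147 CPM and differed between genotypes and experiments, as given below beside the lysate results.

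Fibroblast growth factor 4 is the main autocrine FGF of embryonic stem cells and acts through the receptor tyrosine kinases Fgfr1 and Fgfr2 on the RAS-ERK cascade. Active ERK induces the Pea3-type ETS factors Etv4 and Etv5 and a set of its own inhibitors: Sprouty proteins (Spry2, Spry4) and the Sprouty-related Spred1, which restrain the cascade upstream of ERK, and the dual-specificity phosphatases Dusp4 and Dusp6, which dephosphorylate ERK. In these cells the pathway drives exit from naive pluripotency and the choice of primitive endoderm, so RNA levels of its feedback genes are commonly used as a readout of ERK activity.

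Levels of the 10 RNAs in the lysate spanned a wide range. Per kilobase of the deposited gene length, Etv5 was the most abundant in HA-Tnrc6a inputs, at 83.6 CPM per kb in experiment 3 and 83.4 in experiment 4. In experiment 3 it was followed by Fgf4 at 46.1, Spry2 at 43.1, Spry4 at 37.0, Etv4 at 28.5, Dusp6 at 12.0, Fgfr1 at 8.51, Spred1 at 6.81, Dusp4 at 2.60 and Fgfr2 at 1.16 CPM per kb, and no neighbours in that order overlapped over the 3 libraries of each. Both receptors were thus far below their ligand on this scale. The deposited length was 9875 bases for Fgfr1 and 3195 for Fgf4. Without division by length, Fgfr1 was at 84.0 CPM and Fgf4 at 147 CPM in these inputs. In experiment 4 the order after Etv5 was Spry2 at 68.2, Etv4 at 67.5, Spry4 at 62.0, Fgf4 at 49.4, Dusp6 at 26.2, Spred1 at 11.2, Fgfr1 at 10.0, Dusp4 at 4.14 and Fgfr2 at 1.51 CPM per kb. There the libraries of Spry2 and Etv4 overlapped and the other neighbours did not.

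In HA-Tnrc6a inputs the inhibitors and Etv4 were at higher levels in experiment 4 than in experiment 3, while Fgf4 and Etv5 stayed close. The level of Etv4 was 88.4 ± 1.66 CPM (SD, n = 3) in experiment 3 and 210 ± 4.34 in experiment 4. Dusp6 was at 37.5 ± 4.07 and 82.0 ± 1.42 CPM, and Spry4 at 176 ± 0.92 and 295 ± 6.06. Fgf4 was at 147 ± 6.10 and 158 ± 1.43, and Etv5 at 343 ± 8.34 and 342 ± 3.80. In cells labelled Upf1-/- Fgf4 was at 152 ± 2.54 CPM in experiment 3 and 112 ± 2.05 in experiment 4. The 2 experiments differ in depth and in whatever else was not shared between them, so these differences have no test here and every comparison below was made within an experiment and then averaged.

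**Figure D1:**
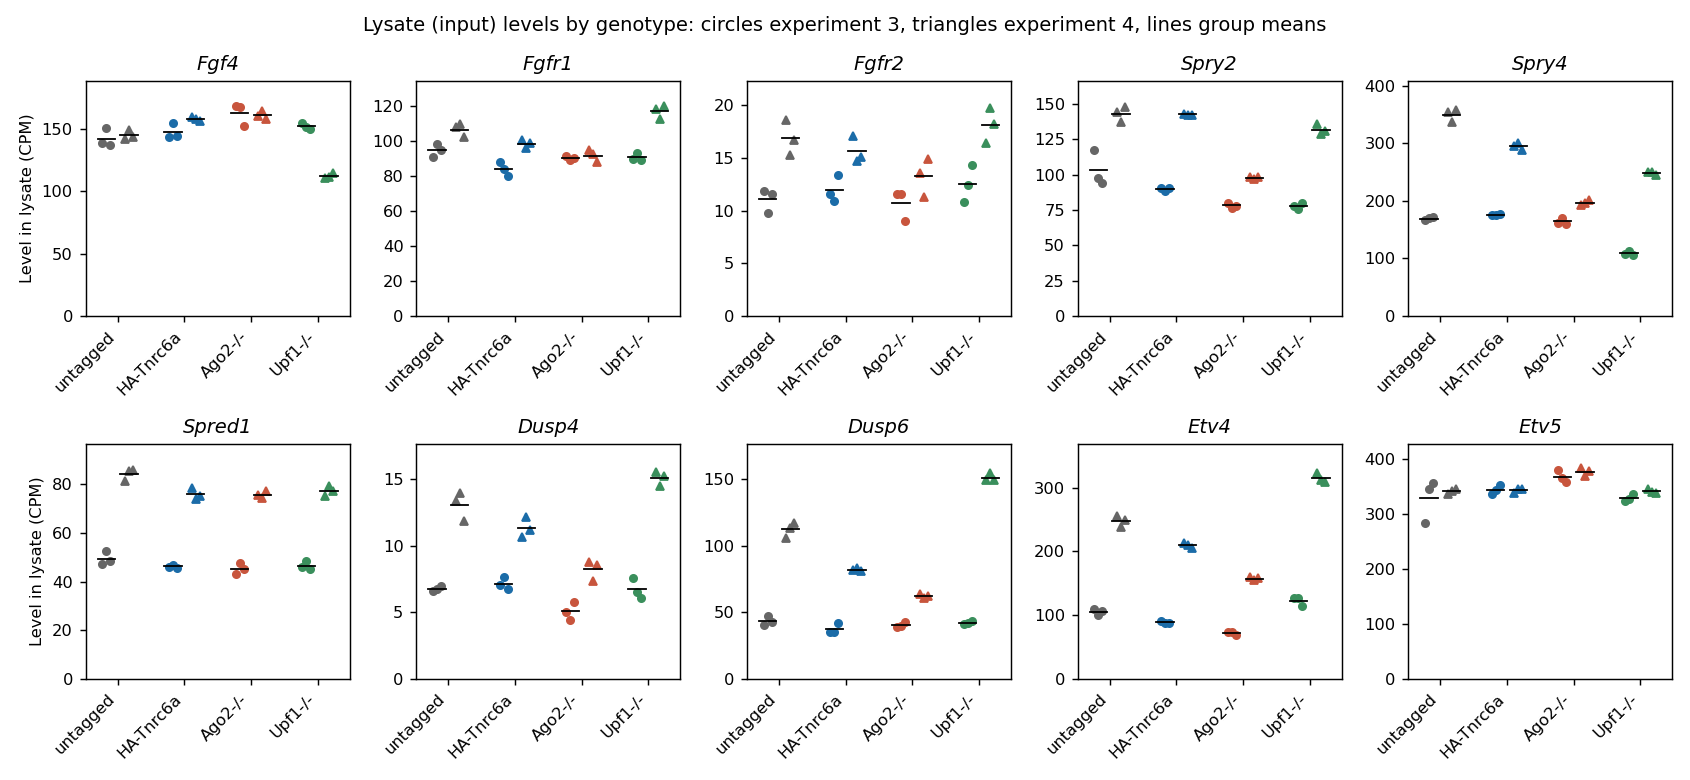
Lysate level in CPM of each of the 10 genes in the 24 inputs, by genotype; circles are experiment 3, triangles experiment 4, and lines the group means of 3 libraries. Etv4 was lowest in Ago2-/- cells and highest in the cells labelled Upf1-/- in both experiments, while Etv5 stayed between 282 and 383 CPM in all inputs.

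The beads alone, without a tagged protein, changed the level of 7 of the 10 RNAs slightly. In untagged cells the IP was above the input for Spry2 (log2 0.26 ± 0.05 SE), Spred1 (0.22 ± 0.06) and Fgfr1 (0.15 ± 0.05). It was below the input for Etv5 (-0.40 ± 0.06), Spry4 (-0.34 ± 0.04), Dusp6 (-0.28 ± 0.05) and Fgf4 (-0.17 ± 0.05). Of all genes tested, 35.7% passed in this comparison, 18.0% higher and 17.8% lower (edgeR quasi-likelihood test, Benjamini-Hochberg adjusted p under 0.05). With library totals in place of TMM scaling the 3 genes above the input lost their call (Fgfr1 then at -0.02) and 7 genes were lower and 0 higher, so the direction of these small differences rests on the scaling. In experiment 3 alone only 1 of the 10 passed. The untagged IPs are the background against which recovery is given below: recovery is the log2 IP-over-input difference in tagged cells minus that in untagged cells.

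Recovery with HA-Tnrc6a was large for Fgf4 and Spry4, moderate for Spry2, and small or negative for the other genes. Fgf4 RNA was recovered 12.7-fold and Spry4 RNA 8.13-fold over untagged cells. Spry2 followed at 2.17-fold, and Spred1, Dusp6 and Etv5 were between 1.70-fold and 1.23-fold. Fgfr1 and Etv4 were lower in the tagged IPs, at 0.783 and 0.762 of the untagged ratio. Fgfr2 and Dusp4 passed in neither direction.

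The ligand came first. In experiment 3, Fgf4 stood at 135, 140 and 125 CPM in the 3 untagged IPs and at 2297, 2012 and 1666 CPM in the HA-Tnrc6a IPs, against 143, 154 and 145 CPM in the HA-Tnrc6a inputs. In experiment 4 it stood at 127, 129 and 112 CPM in untagged IPs and at 1728, 1409 and 1307 CPM in HA-Tnrc6a IPs. Tagged and untagged IPs did not overlap in either experiment, whereas untagged inputs, at 137 to 151 CPM over both experiments, were near the HA-Tnrc6a inputs at 143 to 159 CPM. The fitted recovery of Fgf4 was 3.67 ± 0.09 (log2, SE; adjusted p = 2.4e-26, edgeR), at 3.84 in experiment 3 and 3.51 in experiment 4. Of 19993 genes tested, 223 had a recovery at or above that of Fgf4, itself included.

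Spry4 was the second. Its IPs held 135, 136 and 142 CPM in untagged cells and 1226, 1106 and 1025 CPM in HA-Tnrc6a cells of experiment 3. In experiment 4 they held 262, 264 and 288 CPM in untagged cells and 2190, 1828 and 1692 CPM in HA-Tnrc6a cells. The groups did not overlap. Recovery was 3.02 ± 0.08 (log2; adjusted p = 1.7e-26, edgeR), at 2.95 and 3.09 in the 2 experiments, and 477 genes were at or above it.

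The other inhibitors were recovered to a lesser degree. Spry2 IPs were at 128, 117 and 119 CPM in untagged and 259, 254 and 227 CPM in HA-Tnrc6a cells of experiment 3, while experiment 4 gave 180, 166 and 183 CPM untagged and 396, 330 and 319 CPM tagged. Its recovery was 1.12 ± 0.08 (log2). Spred1 was at 0.77 ± 0.08 and Dusp6 at 0.51 ± 0.07. Thus both Sprouty RNAs were recovered, and the 2 paralogs differed widely in degree: the 95% intervals were 2.87 to 3.18 for Spry4 and 0.96 to 1.28 for Spry2. Dusp4, the other ERK phosphatase, stood at -0.14 ± 0.14 (adjusted p = 0.40), with an interval of -0.43 to 0.15 that lies below the value of Dusp6.

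The ETS factors went in opposite directions. Etv4 IPs were at 125, 103 and 110 CPM in untagged and 68.4, 66.3 and 73.5 CPM in HA-Tnrc6a cells of experiment 3, and at 224, 219 and 222 against 138, 149 and 153 CPM in experiment 4. Its inputs were also lower in HA-Tnrc6a cells, and the IP-over-input difference was -0.39 ± 0.07 (log2; adjusted p = 4.5e-06, edgeR). Etv5 was higher, at 0.30 ± 0.07 (adjusted p = 0.00076), but with library totals it was at 0.14 (adjusted p = 0.14). Among the receptors, Fgfr1 was lower at -0.35 ± 0.07, and Fgfr2 was at -0.25 ± 0.13 (adjusted p = 0.099). Fgfr2 passed with library totals (-0.40) and without HA-Tnrc6a IP library 5 of experiment 4 (-0.33, adjusted p = 0.020). Long noncoding RNA genes overlap Fgfr1 (Gm31288 and Gm16159) and Dusp6 (Gm34921), and their reads may not be fully separable.

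Of all genes tested in this comparison, 62.0% passed, 29.8% higher and 32.2% lower, and the 8 of 10 are to be read against that share. The median recovery was 0.40 over the 10 genes and -0.10 over all genes (log2). The 2 experiments gave recoveries that the test of their difference did not separate for any of the 10 genes (0 at an adjusted and 0 at an unadjusted p under 0.05 in edgeR, 0 in DESeq2; 0.365% of all genes passed). Library totals shifted the median of all genes by -0.16 on the log2 scale in this comparison, by -0.15 and -0.26 in the matching comparisons for Ago2-/- and Upf1-/-, and by -0.17 in the untagged IP-over-input comparison. Directions held there for every member that passed in the recovery of HA-Tnrc6a over untagged cells.

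**Figure D2:**
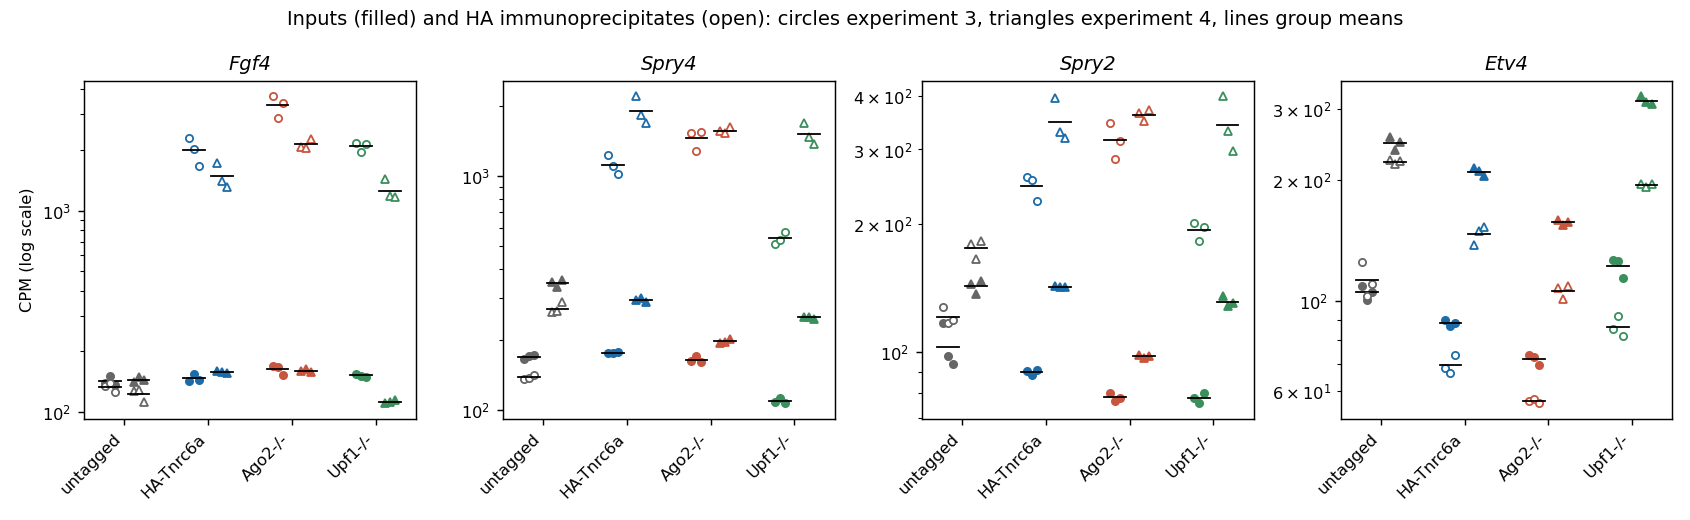
CPM on a log axis of Fgf4, Spry4, Spry2 and Etv4 in inputs (filled) and HA immunoprecipitates (open) of the 4 genotypes; circles are experiment 3, triangles experiment 4, and lines group means of 3 libraries. Tagged Fgf4 IPs lie between 1161 and 3684 CPM and untagged ones between 112 and 140, while tagged Etv4 IPs lie below their inputs.

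The other genes of the pathway gave the setting. Of 33 other ligands, receptors and cascade components, 16 were higher and 7 lower, with a median of 0.08. Of 31 other feedback and target genes, 26 were higher and 1 lower, with a median of 1.17, against -0.10 over all genes. Of the called genes with a mean log2 CPM of 1 or more and the same direction in both experiments, the highest was Elk4, an ETS factor that works with serum response factor, at 4.36 ± 0.12 (log2). The phosphatases Dusp2 (3.63 ± 0.31) and Dusp1 (2.90 ± 0.09) followed. By the same limits the lowest were the RAF kinase Araf (-0.77 ± 0.08), the ERK phosphatase Dusp9 (-0.64 ± 0.07) and the GTPase Hras (-0.63 ± 0.10).

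The other tagged lines gave the same order at the top. These comparisons share the untagged libraries with the one above. In Ago2-/- cells recovery over untagged cells was 4.22 ± 0.08 for Fgf4, 3.41 ± 0.06 for Spry4, 1.70 ± 0.07 for Spry2, 0.90 ± 0.08 for Dusp6, 0.66 ± 0.07 for Spred1 and 0.42 ± 0.07 for Etv5, and -0.42 ± 0.06 for Etv4. Fgfr1, Fgfr2 and Dusp4 did not pass (0.05 ± 0.06, 0.21 ± 0.12 and 0.07 ± 0.14). Thus 6 were higher and 1 lower, where 64.7% of all genes passed. In cells labelled Upf1-/- the values were 3.87 ± 0.07 for Fgf4, 2.86 ± 0.07 for Spry4, 1.15 ± 0.08 for Spry2, 0.89 ± 0.08 for Spred1, 0.79 ± 0.08 for Dusp6 and 0.36 ± 0.08 for Etv5. Etv4 was lower at -0.49 ± 0.07 and Fgfr1 at -0.23 ± 0.07, and Fgfr2 and Dusp4 did not pass (0.20 ± 0.12 and -0.23 ± 0.13). Dusp4 passed as lower with RLE size factors (-0.29) and with DESeq2 (-0.29). There 6 were higher and 2 lower, where 63.6% of all genes passed, 31.8% in each direction; with library totals Etv5 lost its call (0.10) and Dusp4 became lower (-0.49). In that comparison the share of higher genes among all called fell from 50% with TMM to 36.4% with library totals. A test of the difference between experiments, added after the data were seen, passed for 0 of the 10 genes in either line. At an unadjusted p under 0.05 in edgeR it named 2 in Ago2-/- cells (Fgf4 and Dusp6) and 2 in cells labelled Upf1-/- (Fgfr2 and Spry4), where 6.15% and 1.68% of all genes passed after adjustment.

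**Figure D3:**
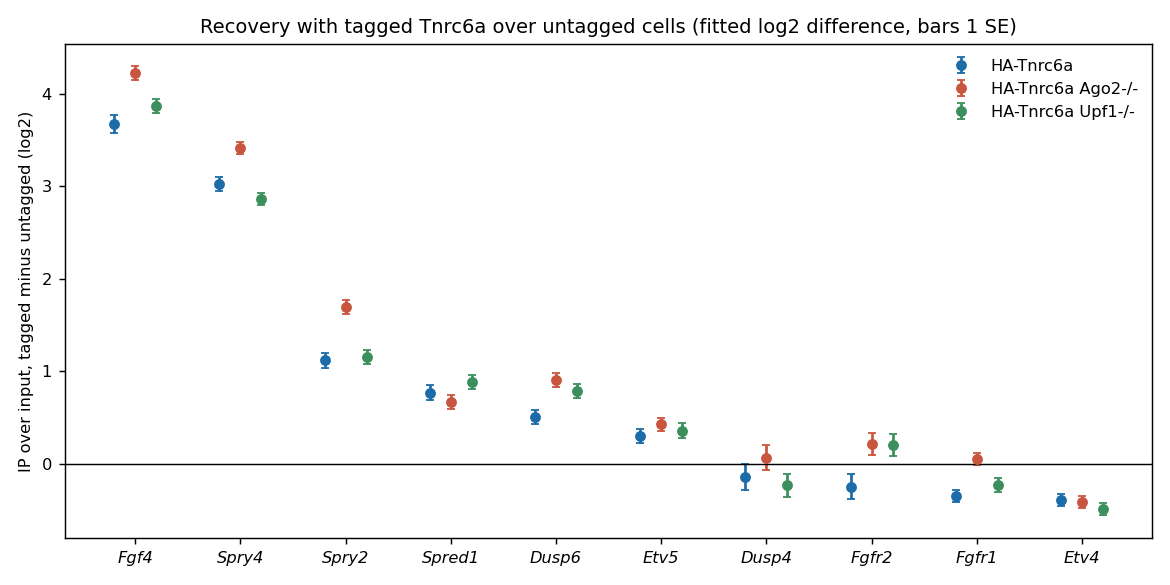
Fitted recovery over untagged cells (log2, bars 1 SE) of the 10 genes in HA-Tnrc6a, Ago2-/- and Upf1-/- cells, ordered by HA-Tnrc6a. Fgf4 and Spry4 stand between 2.86 and 4.22 in all 3 lines, and Etv4 stands below 0 in all 3.

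Recovery in Ago2-/- cells was also compared directly with that in HA-Tnrc6a cells. Tnrc6a RNA itself was higher in the Ago2-/- inputs (0.51 ± 0.03, log2), and its part in recovery was not tested. None of the 10 genes passed with a lower recovery in Ago2-/- cells. Recovery was higher for 6: Spry2 (0.57 ± 0.07, log2), Fgf4 (0.54 ± 0.10), Fgfr2 (0.45 ± 0.13), Fgfr1 (0.39 ± 0.06), Dusp6 (0.39 ± 0.08) and Spry4 (0.38 ± 0.08), with adjusted p from 1.8e-07 to 0.011 (edgeR). The count compares with 9.09% of all genes higher and 12.3% lower, 21.3% in all. The median was 0.39 over the 10 and -0.04 over all genes. Spred1 (-0.11 ± 0.07), Etv4 (-0.03 ± 0.06), Etv5 (0.12 ± 0.06) and Dusp4 (0.20 ± 0.15) did not pass. In experiment 3 alone the calls of Fgfr1 (0.31), Fgfr2 (0.22) and Dusp6 (0.22) were lost (edgeR adjusted p = 0.053, 0.54 and 0.36). The difference between experiments did not pass for any of the 10 genes (0 also at an unadjusted p under 0.05 in edgeR, 0 in DESeq2; 0.195% of all genes passed), although experiment 3 alone called 3 and experiment 4 alone 6.

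IP and input contributed differently from gene to gene. Fgf4 IPs held 3684, 2876 and 3418 CPM in Ago2-/- cells of experiment 3, and 2070, 2050 and 2272 CPM in experiment 4, all above the HA-Tnrc6a IPs of the same experiment. Compared without inputs, the Fgf4 IPs differed by 0.67 ± 0.09 (log2) and the Fgfr1 IPs by 0.43 ± 0.05, each close to its IP-over-input value. Spry4 IPs held 1533, 1275 and 1547 CPM in experiment 3, above HA-Tnrc6a, and 1554, 1523 and 1618 CPM in experiment 4, below it. Without inputs the Spry4 IPs differed by 0.08 ± 0.08 (adjusted p = 0.43), while its input was lower by 0.34 on the log2 scale, so its higher ratio came with a lower input. Spry2 was intermediate: 0.24 ± 0.07 between IPs, with its input at -0.37 ± 0.03. Fgfr2 and Dusp6 IPs differed by 0.29 ± 0.10 and 0.28 ± 0.06, with inputs at -0.20 and -0.15. Etv4 IPs were lower by 0.35 ± 0.06, the same size as its input difference, which left its ratio near 0.

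**Figure D4:**
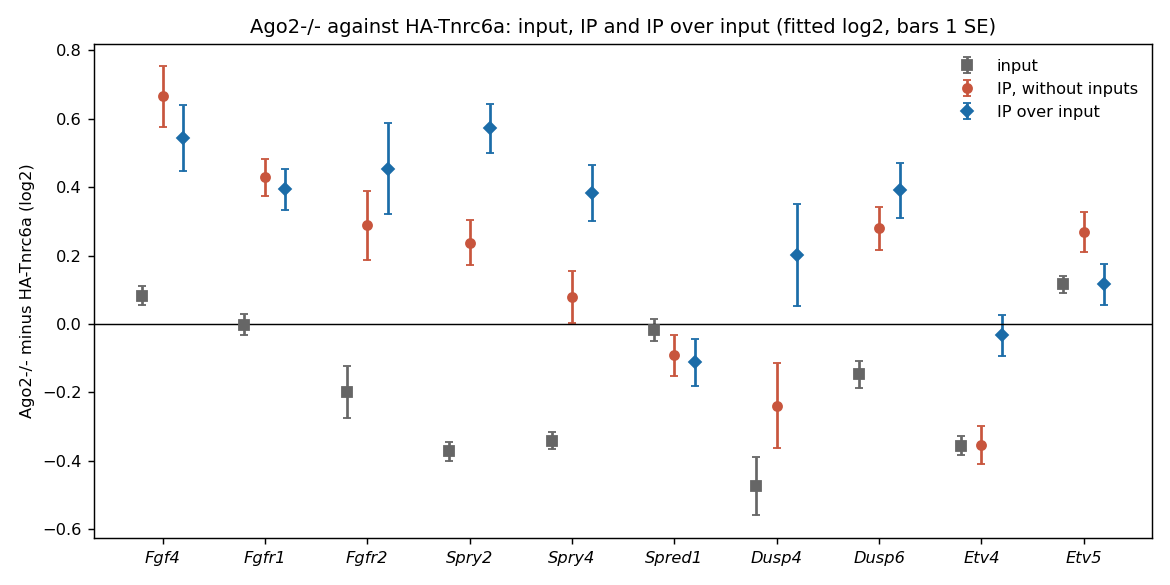
Ago2-/- minus HA-Tnrc6a (fitted log2, bars 1 SE) for the 10 genes in the inputs, in the IPs compared without inputs, and as IP over input. For Fgf4 and Fgfr1 the IP and the ratio lie together, whereas for Spry2 and Spry4 the ratio lies above the IP and the input lies below 0.

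Among the other pathway genes, 6 of the 33 ligands, receptors and cascade components were recovered more and 8 less in Ago2-/- cells (median 0.02). Of the 31 other feedback and target genes, 13 were higher and 4 lower (median 0.09). Within the limits on level and direction given above, the highest were the immediate-early factor Fosb (1.17 ± 0.42, log2), the early response gene Ier3 (1.15 ± 0.14) and Dusp2 (1.05 ± 0.27). The lowest within those limits were the AP-1 factor Fosl1 (-1.22 ± 0.28), Elk4 (-0.74 ± 0.11) and the RAS exchange factor Sos1 (-0.68 ± 0.08).

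Between cells labelled Upf1-/- and HA-Tnrc6a, recovery of the 10 genes differed little. Fgfr2 (0.44 ± 0.13, log2; adjusted p = 0.0498) and Dusp6 (0.27 ± 0.07; adjusted p = 0.029) passed, where 4.49% of all genes did (2.92% higher, 1.57% lower). Neither call held when all 48 libraries were fitted together, when scaling used RLE factors or when the filter was dropped, where 0 of 10 passed (4 of 10 at an unadjusted p under 0.05 in each). Leaving out single libraries left 0 to 2 calls. With library totals 1 gene was called, Spry4 in the lower direction (-0.26), and the share of higher genes among all called went from 65.1% to 22.4%. The other 8 genes had values from -0.17 ± 0.08 for Spry4 to 0.19 ± 0.09 for Fgf4. Spry4 also passed as lower without Upf1-/- IP library 4 of experiment 4 (-0.27, adjusted p = 0.047, edgeR). The interval for Fgf4 was 0.00 to 0.37, and that for Spry2 was -0.13 to 0.18. No difference between experiments passed (0 also at an unadjusted p under 0.05 in edgeR, 0 in DESeq2; 0.115% of all genes passed).

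Spry4 and Dusp6 RNA differed in the IPs and in the inputs in the same direction. Spry4 IPs of the cells labelled Upf1-/- held 513, 533 and 578 CPM in experiment 3, below the IPs of both other tagged lines, and 1683, 1470 and 1375 CPM in experiment 4. Its IPs differed from HA-Tnrc6a by -0.67 ± 0.08 without inputs, and its inputs by -0.46 ± 0.02. Dusp6 IPs of experiment 4 stood at 208, 226 and 216 CPM, where HA-Tnrc6a IPs held 97.2, 96.1 and 93.6 CPM, and its IPs differed by 0.76 ± 0.06 and its inputs by 0.53 ± 0.03. Among the other pathway genes, 4 of 31 feedback and target genes were recovered more and 0 less, among them Fos (0.54 ± 0.13), Dusp14 (0.51 ± 0.15) and the zinc-finger factor Egr1 (0.35 ± 0.10). Of the 33 ligands, receptors and cascade components 1 passed, the phosphatase Ptpn11 at -0.45 ± 0.06.

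Ago2-/- cells recovered more Spry4 (0.58 ± 0.07, log2), Spry2 (0.57 ± 0.07), Fgf4 (0.38 ± 0.07) and Fgfr1 (0.30 ± 0.07) than cells labelled Upf1-/-, where 24.4% of all genes passed. Spred1 was recovered less (-0.20 ± 0.07, adjusted p = 0.029), a call that was lost without any of 15 single libraries. Tnrc6a RNA was also higher in Ago2-/- inputs than in Upf1-/- labelled inputs (0.54 ± 0.03, log2), and its part was not tested. Experiments 3 and 4 alone called 3 genes each. The same added test of the difference between experiments passed for 0 of the 10 genes, and 3 (Fgfr1, Fgfr2 and Spry4) were at an unadjusted p under 0.05 in edgeR, where 0.125% of all genes passed. With library totals 8 genes were higher and 0 lower, and the share of higher genes among all called went from 44.6% to 63.4%.

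Lysate levels differed from HA-Tnrc6a in both knockout lines, and differently by gene. For these differences, as for those in recovery, the knockout and the clone cannot be told apart. Untagged cells, which carry neither knockout, also differed from HA-Tnrc6a, with 5 of the 10 RNAs higher and 0 lower. The largest of these were Dusp6 at 0.33 and Etv4 at 0.24 (log2, given below). In Ago2-/- inputs 6 of the 10 RNAs were lower than in HA-Tnrc6a: Dusp4 (-0.47 ± 0.09, log2), Spry2 (-0.37 ± 0.03), Etv4 (-0.36 ± 0.03), Spry4 (-0.34 ± 0.03), Fgfr2 (-0.20 ± 0.08) and Dusp6 (-0.15 ± 0.04). Etv5 (0.12 ± 0.02) and Fgf4 (0.08 ± 0.03) were slightly higher. Of all genes, 15.7% were higher and 15.2% lower, 30.9% in all. The median was -0.17 over the 10 genes and -0.01 over all. Fgfr1 (0.00 ± 0.03) and Spred1 (-0.02 ± 0.03) did not pass.

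Etv4 and Dusp4 were lower in both experiments, at -0.30 and -0.42 for Etv4 and -0.49 and -0.46 for Dusp4, and the test of the difference did not pass (adjusted p = 0.21 and 0.97, edgeR). Etv4 inputs held 73.7, 72.9 and 69.5 CPM in Ago2-/- against 90.1, 86.8 and 88.3 CPM in HA-Tnrc6a in experiment 3, and 159, 155 and 158 against 214, 210 and 205 CPM in experiment 4. The groups did not overlap in either experiment. Dusp4 inputs held 5.06, 4.39 and 5.79 against 7.04, 7.63 and 6.71 CPM, and 8.76, 7.37 and 8.56 against 10.6, 12.2 and 11.2 CPM. The Fgf4 call was lost without any of 4 single libraries, the Fgfr2 call without any of 6, and the Dusp6 call without HA-Tnrc6a input 3 of experiment 3 (-0.09, adjusted p = 0.065). With all 48 libraries in 1 fit 4 of the 10 passed, which were Spry2, Spry4, Dusp4 and Etv4.

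The sizes differed between the experiments for 4 genes (test of the difference, edgeR adjusted p under 0.05; 5.94% of all genes passed). Spry4 was at -0.10 in experiment 3 and -0.59 in experiment 4, Spry2 at -0.20 and -0.55, and Dusp6 at 0.10 and -0.40. Fgfr1 was at 0.10 and -0.11. In CPM, Spry4 inputs held 162, 170 and 161 in Ago2-/- against 175, 175 and 177 in HA-Tnrc6a cells of experiment 3, and 193, 196 and 201 against 295, 301 and 288 in experiment 4. The means of experiments 3 and 4 were thus 164 and 197 CPM in Ago2-/- but 176 and 295 CPM in HA-Tnrc6a cells.

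Markers of primitive endoderm, a cell type that depends on FGF signalling, also differed: all 8 were lower in Ago2-/- inputs (median -2.26, log2). Their summed level was 44.0 to 47.0 CPM in Ago2-/- against 124 to 132 CPM in HA-Tnrc6a inputs of experiment 3, and 49.0 to 58.3 against 102 to 119 CPM in experiment 4. The gap in this summed CPM was wider in experiment 3. Lama1 was the largest single part of the sum, at 25.7 to 90.6 CPM over all inputs, while Gata6 was present at 0.28 to 18.6 CPM and Foxa2 at 0 to 0.96 CPM. Other marker lists moved as well: embryonic stem cell markers were higher for 7 and lower for 1 of 10, neural markers higher for 4 and lower for 1 of 5, primed epiblast markers lower for 3 of 4, fibroblast markers lower for 3 of 3 and mesendoderm markers higher for 1 of 4 tested. In bulk RNA fewer cells of a type and less RNA per cell cannot be told apart, and the part of any of these lists in the differences was not tested. Of the other pathway genes within the limits above, Fgf15 (0.90 ± 0.08), Fgf1 (0.77 ± 0.11) and Fgf17 (0.64 ± 0.05) were higher and Fgf10 (-1.03 ± 0.14), the receptor Fgfr4 (-0.75 ± 0.15) and the FGF receptor partner Flrt3 (-0.73 ± 0.12) lower. In all 7 of 33 ligands, receptors and cascade components were higher and 11 lower, and 6 of 31 feedback and target genes were higher and 9 lower.

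In inputs of cells labelled Upf1-/-, 4 RNAs were higher and 3 lower than in HA-Tnrc6a. Etv4 (0.53 ± 0.03, log2), Dusp6 (0.53 ± 0.03), Fgfr1 (0.18 ± 0.03) and Dusp4 (0.17 ± 0.07) were higher. Spry4 (-0.46 ± 0.02), Fgf4 (-0.22 ± 0.03) and Spry2 (-0.16 ± 0.03) were lower. Of all genes 58.6% passed, 29.5% higher and 29.0% lower, and the median was 0.08 over the 10 and -0.02 over all. Fgfr2 (0.13 ± 0.07), Spred1 (0.02 ± 0.03) and Etv5 (-0.03 ± 0.02) did not pass. The Dusp4 call (adjusted p = 0.045) was lost without any of 7 single libraries and with RLE size factors or DESeq2. Experiment 3 alone called 3 genes, and experiment 4 alone 8.

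Etv4 was higher in both experiments. Its inputs held 127, 126 and 114 CPM against 90.1, 86.8 and 88.3 CPM in HA-Tnrc6a cells of experiment 3, and 323, 312 and 309 against 214, 210 and 205 CPM in experiment 4. For 4 other genes the experiments differed (11.6% of all genes passed that test). Dusp6 was at 0.15 in experiment 3 and 0.90 in experiment 4, where its inputs held 149, 155 and 150 CPM against 81.6, 83.5 and 80.8 CPM. Dusp4 was at -0.09 and 0.43, Spry4 at -0.70 and -0.23, and Fgf4 at 0.04 and -0.48. Fgf4 inputs held 155, 152 and 150 CPM in experiment 3 and 110, 112 and 114 CPM in experiment 4, the lowest of all inputs. Thus the ERK inhibitors did not move as 1 group: Dusp6 and Spry4 went in opposite directions in the same libraries.

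Primitive endoderm markers differed here too: 1 of 8 was higher and 4 were lower over both experiments, but the summed level was 39.6 to 47.0 CPM in experiment 3 and 137 to 147 CPM in experiment 4, below and above HA-Tnrc6a. Primed epiblast markers were lower for 4 of 4 (median -0.69, log2), neural markers lower for 3 of 5, embryonic stem cell markers higher for 3 and lower for 5 of 10, fibroblast markers higher for 1 and lower for 1 of 3, and mesendoderm markers higher for 1 of 5. The part of these lists in the differences was not tested. Among the other pathway genes within those limits, Egr1, an immediate-early target of ERK, was the lowest at -2.01 ± 0.04, with the ligands Fgf15 (-1.06 ± 0.11) and Fgf17 (-0.99 ± 0.06). Fgf1 (1.25 ± 0.10), the adaptor Shc1 (1.05 ± 0.03) and the phosphatase Ptpn11 (0.65 ± 0.03), all of the ligand, receptor and cascade list, were the highest within the limits. In all 12 of 33 ligands, receptors and cascade components were higher and 9 lower, and 8 of 31 feedback and target genes were higher and 14 lower.

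**Figure D5:**
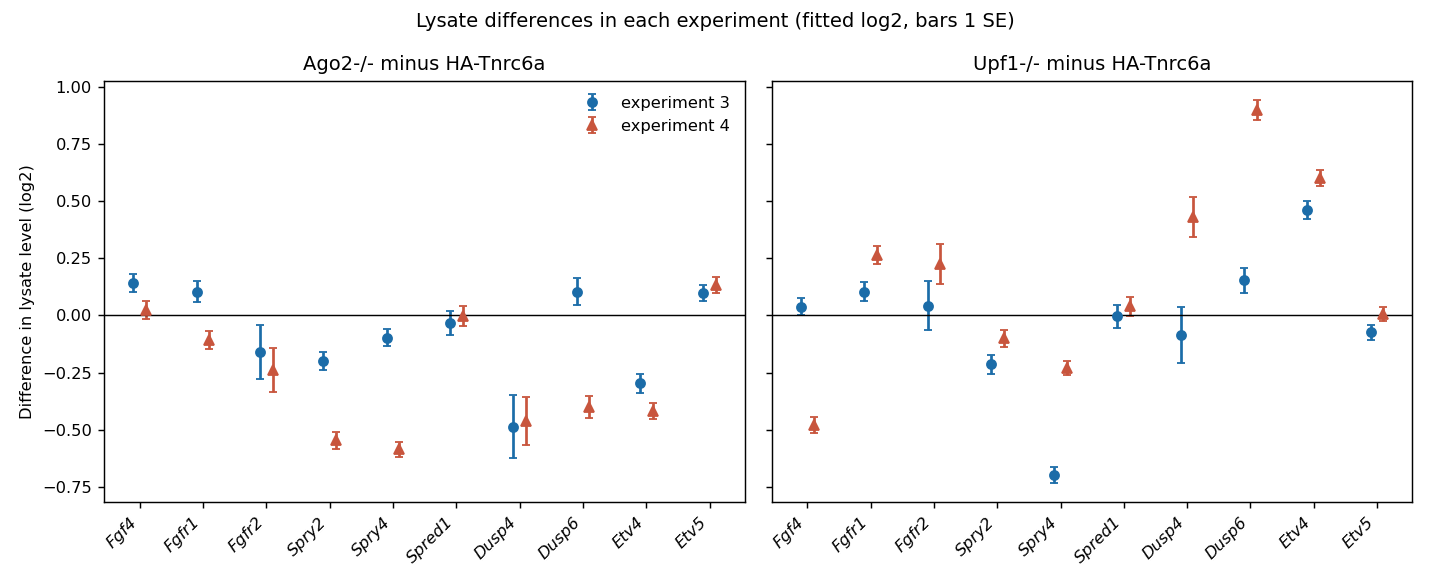
Fitted difference in lysate level (log2, bars 1 SE) of Ago2-/- (left) and Upf1-/- (right) against HA-Tnrc6a cells in experiment 3 (circles) and experiment 4 (triangles). Etv4 lies below 0 in both experiments on the left and above 0 in both on the right, and Dusp6 lies near 0 in experiment 3 and at -0.40 and 0.90 in experiment 4.

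Set directly against each other, Ago2-/- and Upf1-/- labelled inputs differed for 9 of the 10 RNAs, where 62.3% of all genes passed. Etv4 (-0.88 ± 0.03, log2, Ago2-/- minus Upf1-/-), Dusp6 (-0.67 ± 0.03), Dusp4 (-0.64 ± 0.08), Fgfr2 (-0.33 ± 0.08), Spry2 (-0.21 ± 0.03) and Fgfr1 (-0.18 ± 0.03) were lower in Ago2-/- cells. Fgf4 (0.31 ± 0.03), Etv5 (0.15 ± 0.03) and Spry4 (0.13 ± 0.03) were higher. The Dusp6 difference was -0.04 in experiment 3 and -1.30 in experiment 4, and that of Spry4 turned from 0.61 to -0.36, so neither average describes both experiments. The difference between experiments passed for 7 of the 10 genes and 13.1% of all genes, likewise in an added test. In these inputs primitive endoderm markers were lower in Ago2-/- cells for 7 of 7 tested, neural markers higher for 4 of 5, embryonic stem cell markers higher for 6 and lower for 1 of 10, primed epiblast markers higher for 3 and lower for 1 of 4, mesendoderm markers higher for 1 and lower for 1 of 4 tested, and fibroblast markers lower for 2 of 2 tested. Their part was not tested.

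Untagged and HA-Tnrc6a inputs also showed small differences, for which the tag and the cell line or clone cannot be told apart. In untagged inputs Dusp6 (0.33 ± 0.05, log2), Etv4 (0.24 ± 0.03), Fgfr1 (0.14 ± 0.04), Spred1 (0.12 ± 0.04) and Spry4 (0.10 ± 0.03) were higher than in HA-Tnrc6a, and 0 of the 10 were lower, where 15.4% of all genes passed (7.67% higher and 7.74% lower). Dusp6 inputs held 40.8, 47.0 and 42.7 against 35.5, 34.9 and 42.2 CPM in experiment 3, which overlap, and 106, 114 and 117 against 81.6, 83.5 and 80.8 CPM in experiment 4. The Spred1 call was lost without any of 7 single libraries and the Spry4 call without any of 6, and Spry4 was at -0.06 in experiment 3 and 0.25 in experiment 4, a difference that passed for this gene alone of the 10 (3.40% of all genes) in a test added after the data were seen. Experiment 3 alone called 1 gene, and 3 passed with all 48 libraries in 1 fit. Primitive endoderm markers were lower for 3 of 8, at a sum of 50.6 to 57.2 CPM in untagged inputs of experiment 3 and 107 to 111 CPM in experiment 4. Primed epiblast markers were lower for 2 of 4, embryonic stem cell markers higher for 1 and lower for 3 of 10, and neural markers higher for 1 of 5; the part of these lists was not tested.

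Across the 24 inputs the RNAs followed each other in part. As a description over libraries that share genotype, experiment and depth, log2 CPM of Fgfr1 and Dusp6, after subtraction of each experiment's mean, had a Pearson correlation of 0.86, Dusp4 and Etv4 of 0.83, and Spry2 and Spry4 of 0.74, whereas Fgf4 and Dusp6 stood at -0.82. The gene most like Etv4 among 14601 others was Kdelr3 (0.98), and those most like Dusp6 and Fgf4 were Glud1 (0.95) and Camkv (0.92). Across the 24 IPs, where the untagged and tagged libraries set the range, Spry2 and Spry4 stood at 0.98 and Fgf4 and Spry4 at 0.96. The gene most like Fgf4 there was Dnajb9 (0.998), and the one most like Spry4 was Gpr139 (0.99).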

How the data were processed

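Total RNA libraries were made with a stranded TruSeq kit per the labels' protocols. STAR 2.7.3a, bcl2fastq 2.20 and the builds GRCm38 and mm10 are named in the submitters' processing notes, and the counting tool and strand setting are not given in the sources used here. The deposited table holds raw counts per gene in 48 columns and a gene length in bases, which the authors made. Another 48 deposited per-sample columns of length-normalized values were not used. Count columns numbered 1 to 3 match titles of experiment 3. Columns 4 to 6 were taken as experiment 4 from the genotype and fraction in their names and the numbering. That is an inference: exchanging the blocks 1 to 3 and 4 to 6 as a whole would leave averages over both experiments unaffected. Any other assignment of columns to experiments would change the contrasts within an experiment and their averages. The table itself names 16427 genes, the reference gene list named 3725 more, and 19 have no symbol.

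Counts were tested with edgeR 4.0.16 in R 4.3.3 (quasi-likelihood F-test, robust, two-sided): TMM scaling, filterByExpr with a minimum count of 10, 1 coefficient per group, contrasts within each experiment averaged, and Benjamini-Hochberg adjustment over all genes tested at 0.05. CPM used TMM-scaled totals of all 48 libraries, and likeness used log2 CPM with a prior count of 2. The script was tested on simulated data. Alternatives were RLE factors, library totals, no filter, DESeq2 1.42.0, all libraries in 1 fit, a replicate block, each experiment alone, IPs without inputs, and leaving out each library.

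All 10 genes are named. Of 33 ligands, receptors and cascade genes and 31 feedback and target genes in the table, up to 3 per direction and comparison are named: those past the threshold that changed most, provided their mean log2 CPM was 1 or more and experiments 3 and 4 gave the same direction. The members and lists were chosen with earlier results of these data known. Marker lists of embryonic stem cells (10 genes), primitive endoderm (8), primed epiblast (4), mesendoderm (5), fibroblasts (3) and neural cells (5) had sums of 6605 to 8148, 39.6 to 147, 125 to 177, 5.89 to 16.9, 20.5 to 36.7 and 56.8 to 129 CPM in inputs. No 2 libraries of a group agreed within sampling noise.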

Additional observations from a re-analysis of the deposited data

Results flagged for a closer look

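The lysate differences of 16 gene and genotype pairs had a size that differed between the experiments, by a test of that difference in edgeR at an adjusted p under 0.05. All values are log2, experiment 4 minus experiment 3. For Ago2-/- against HA-Tnrc6a the differences were -0.211 for Fgfr1, -0.346 for Spry2, -0.489 for Spry4 and -0.501 for Dusp6. For cells labelled Upf1-/- against HA-Tnrc6a they were -0.516 for Fgf4, 0.468 for Spry4, 0.515 for Dusp4 and 0.743 for Dusp6.

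The same test was added for 2 more comparisons after the data were seen. For untagged against HA-Tnrc6a inputs it passed for Spry4, at 0.301. For Ago2-/- against cells labelled Upf1-/- it passed for Fgf4 at 0.379, Fgfr1 at -0.388, Spry2 at -0.478, Spry4 at -0.975, Dusp4 at -0.510, Dusp6 at -1.26 and Etv4 at -0.280. These comparisons share libraries with the ones above. The shares of all genes that passed were 5.94%, 11.6%, 3.40% and 13.1% in the 4 comparisons, in the order given. In the 6 recovery comparisons between cell lines, 0 of the 10 genes passed this test; at an unadjusted p under 0.05 in edgeR it named 2 in Ago2-/- over untagged, 2 in Upf1-/- labelled over untagged and 3 in Ago2-/- against Upf1-/- labelled cells.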

How the results depend on the processing

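Over alternatives other than leaving out libraries, 802 values of single genes kept their direction and side of the threshold, 62 lost and 31 gained a call, and 45 changed sign; over omitted libraries these were 1896, 86, 24 and 34. The cause was not tested. Dusp4 and Fgfr2 had the fewest reads per kilobase in the inputs, and what depth limits there was not tested. The authors' scaling was not run, because those columns were not used.

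Counts of the 10 genes called moved as follows. With experiment 3 alone they were 3 for recovery in Ago2-/- against HA-Tnrc6a, 0 for Upf1-/- against HA-Tnrc6a, 3 for Ago2-/- against Upf1-/-, 4, 3, 1 and 4 for the lysate comparisons of Ago2-/-, Upf1-/- and untagged with HA-Tnrc6a and of Ago2-/- with Upf1-/-, and 1 for untagged IP over input. With experiment 4 alone they were 1 for Upf1-/- against HA-Tnrc6a and 3 for Ago2-/- against Upf1-/- recovery. For Upf1-/- against HA-Tnrc6a recovery they were 0 with RLE factors, 0 without the filter, 0 with all 48 libraries, 1 with library totals and 5 with IPs without inputs. For Ago2-/- against Upf1-/- recovery they were 8 with library totals and 10 with IPs without inputs. With all 48 libraries they were 4 for Ago2-/- and 3 for untagged lysates against HA-Tnrc6a, and 2 for the difference between experiments in the former. IPs without inputs gave 1 and 2 differences between experiments for Ago2-/- and Upf1-/- against HA-Tnrc6a. Omitting 1 library gave 8 to 9, 7 to 7 and 8 to 9 calls for recovery of HA-Tnrc6a, Ago2-/- and Upf1-/- over untagged cells, 6 to 6, 0 to 2 and 4 to 7 for the 3 recoveries among tagged lines, and 6 to 8, 6 to 7, 3 to 6 and 9 to 9 for the lysates. The differences between experiments stayed at 0 for recovery and at 3 to 5 for both lysates.

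The following values changed sign (log2). With experiment 3 alone, recovery over untagged in HA-Tnrc6a was 0.0092 for Fgfr2 and 0.069 for Dusp4, in Upf1-/- against HA-Tnrc6a -0.15 for Spry2 and -0.0097 for Etv5, and in Ago2-/- against Upf1-/- -0.20 for Fgfr2. Lysate values were then 0.10 for Fgfr1 and 0.10 for Dusp6 in Ago2-/-, 0.039 for Fgf4, -0.0022 for Spred1 and -0.086 for Dusp4 in Upf1-/-, -0.058 for Spry4 and -0.076 for Dusp4 in untagged, and 0.0087 for Spry2 in Ago2-/- against Upf1-/-; untagged IP over input was 0.10 for Etv4. With experiment 4 alone, recovery over untagged was -0.18 for Dusp4 in Ago2-/- and -0.19 for Fgfr2 in Upf1-/-, lysate values were 0.0011 for Spred1 in Ago2-/-, 0.0058 for Etv5 in Upf1-/-, 0.10 for Fgfr2 in untagged and -0.36 for Spry4 in Ago2-/- against Upf1-/-, and untagged IP over input was 0.086 for Fgfr2. With library totals, recovery over untagged was -0.11 for Fgfr1 and -0.088 for Dusp4 in Ago2-/- and -0.059 for Fgfr2 in Upf1-/-, Upf1-/- against HA-Tnrc6a was -0.063 for Spry2 and -0.046 for Etv5, the Upf1-/- lysate value was 0.0083 for Etv5, and untagged IP over input was -0.023 for Fgfr1. Fgfr1 in Ago2-/- lysates was 0.0023 with RLE factors and 0.0023 with DESeq2. Recovery in Upf1-/- against HA-Tnrc6a was -0.0029 for Spry2 without the filter, and -0.027 for Spry2 and -0.0095 for Etv5 with all 48 libraries.

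IPs without inputs gave -0.065 for Fgfr1 and -0.44 for Dusp4 in Ago2-/- over untagged, -0.24 for Dusp4 in Ago2-/- against HA-Tnrc6a, -0.072 for Fgf4, -0.17 for Spry2, 0.023 for Dusp4, 0.38 for Etv4 and -0.030 for Etv5 in Upf1-/- against HA-Tnrc6a, and -0.28 for Fgfr2, -0.30 for Dusp4, -0.52 for Dusp6 and -0.77 for Etv4 in Ago2-/- against Upf1-/-; by construction these also hold the lysate difference. Omitting 1 library gave -0.023 to 0.12 for Dusp4 in Ago2-/- over untagged, -0.089 to 0.062 for Spry2 and -0.020 to 0.052 for Etv5 in Upf1-/- against HA-Tnrc6a recovery, -0.017 to 0.13 for Fgfr2 in Ago2-/- against Upf1-/- recovery, -0.013 to 0.018 for Fgfr1 and -0.035 to 0.0023 for Spred1 in Ago2-/- lysates, and -0.068 to 0.013 for Etv5 and -0.046 to 0.039 for Fgfr2 in untagged lysates.

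Deviations of same-numbered libraries had a mean correlation of 0.011 over 168 pairs of groups (-0.049 to 0.19). For input and IP of 1 genotype the mean was 0.020 over 24 pairs. Such correlations cannot show whether an input and an IP came from the same culture. The replicate block was shared by the genotypes of an experiment, so pairing of input and IP within a genotype was not modelled. With a replicate block the Upf1-/- lysate count was 6 in place of 7 (Dusp4, adjusted p = 0.052), the untagged lysate count 6 in place of 5 (Fgf4, -0.09), and the Upf1-/- lysate differences between experiments 6 in place of 4; the block changed no other count of the 10 genes.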
